A study of Mus musculus with 12 samples.

Results

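The effect of losing both myocardin-related transcription factors on unloaded cardiomyocytes was read from 6 of the 12 libraries of the series, 3 labelled dKO and 3 labelled control, all from sham-operated mice. These libraries were taken by their labelled genotype and surgery, and every difference is given as dKO minus control. Control mice carried the alphaMHC-MerCreMre/+ transgene, in which the promoter of the alpha myosin heavy chain gene drives a tamoxifen-inducible Cre recombinase in cardiomyocytes. The dKO mice were MHC-MerCreMre/+; Mrtf-a-/-; Mrtf-bflox/flox, so Mrtf-a was deleted in every cell and Mrtf-b where Cre acted. All mice were male, and both genotypes received 3 daily injections of tamoxifen (30 ug/g) at 8 weeks of age. Surgery was at 10 weeks per the protocols (8 weeks in the design text), and cardiomyocytes were isolated 7 days later, at 11 weeks. The labels trace the controls to 1 published strain and the dKO mice to 3, and nothing in the sources used here says that the groups were littermates. The dKO genotype and any difference in strain background therefore cannot be told apart. Nor do the labels say whether replicates came from separate animals, so p-values measure the spread between these samples, which may be technical. The other 6 libraries, from mice with transverse aortic constriction (TAC, a narrowing that loads the left ventricle with pressure), entered the same fit and served as a second look at each gene.

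MRTF-A and MRTF-B, encoded by Mkl1 and Mkl2 in the table, are cofactors of serum response factor (Srf). They are held in the cytoplasm by free actin monomers and enter the nucleus when actin polymerises, where serum response factor binds a DNA element called the CArG box and turns on genes of the actin cytoskeleton. Myocardin (Myocd) is a related cofactor that is constitutively nuclear in heart and smooth muscle.

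Total counts lay between 20082000 and 29675212 in the 6 sham libraries, and levels are given as normalised read counts (CPM, counts scaled to the library's size by edgeR's TMM method). Among these 6 libraries, dKO sham replicate 1 stood apart. Transcript length here means the total length of a gene's annotated exons, with overlapping parts counted once. In dKO sham replicate 1, the Spearman correlation across 9741 genes between transcript length and the deviation from the other replicates was -0.62, against -0.10 to 0.11 in the control sham libraries and, since each was compared with a mean that held it, 0.65 and 0.55 in the other dKO sham libraries. Mitochondrially encoded genes took 16.5% of its counts, against 28.9% in both other dKO sham libraries and 29.4% to 32.6% in control sham. The dKO minus control difference in that share was -6.24 percentage points (two-sided exact permutation test p = 0.1, the smallest that 3 against 3 allows) and -2.10 points without this library (exact permutation p = 0.2, the smallest for 2 against 3). Fitted changes are therefore given with and without it.

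Few genes passed between the genotypes without load. With all 12 libraries, 6 of 14712 genes were higher in dKO (0.0408% of those tested) and 4 were lower (0.0272%) at an adjusted p under 0.05 in edgeR's quasi-likelihood test with Benjamini-Hochberg adjustment. Without dKO sham replicate 1, 7 of 15037 genes were higher (0.0466%) and 2 lower (0.0133%). The fits shared 7 calls, and 12 genes were called in either. Acta1, Nppb and Mkl1 were called lower only with all 12 libraries, at edgeR adjusted p-values of 0.0537, 0.0864 and 0.0864 without that library. Lcn2 and Rtn4r were called only without it, at edgeR adjusted p-values of 0.0521 and 0.0555 with all 12. With all 12 libraries the edgeR adjusted p was 0.0102 for Acta1, 0.0458 for Nppb and 0.0409 for Mkl1. The change of status of Lcn2 and Rtn4r thus rests on a small move around the threshold, while the move of Acta1 was larger.

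**Figure D1:**
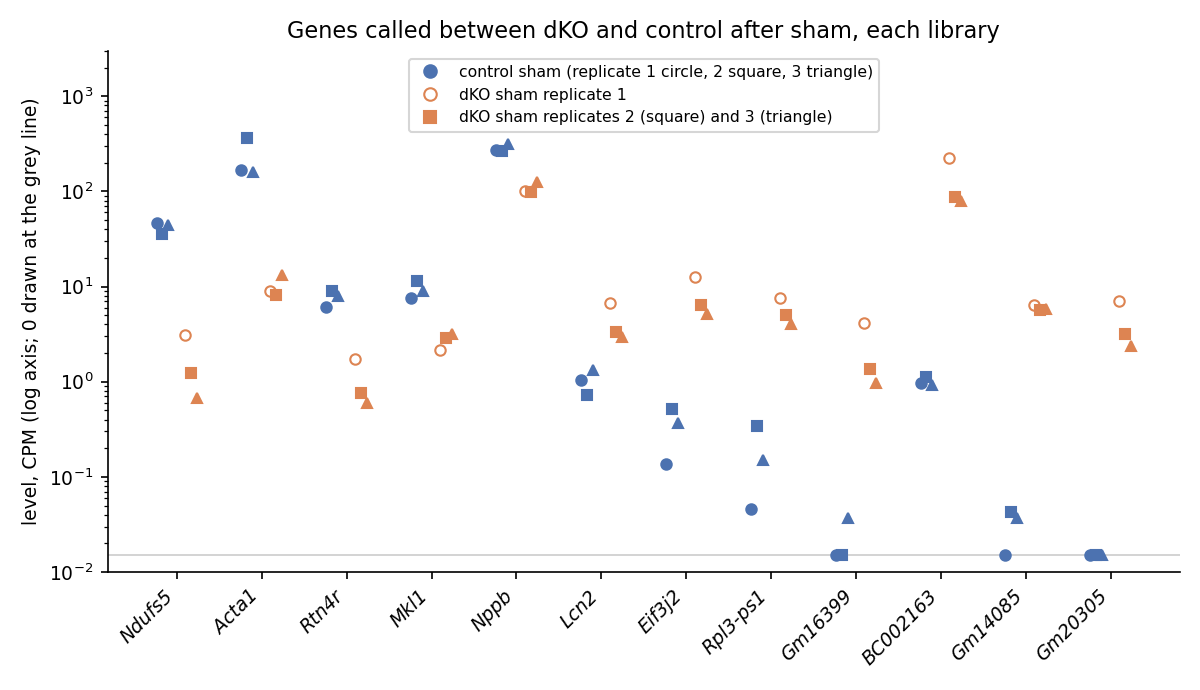
Levels (CPM, log axis) of the 12 genes called in either fit, in the 3 control sham and 3 dKO sham libraries, ordered by log2 change; the open circle is dKO sham replicate 1. In every gene the 3 dKO libraries lie on 1 side of the 3 control libraries.

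The targeted genes were examined first. Mkl1 (ENSMUSG00000042292.16, GRCm38 chromosome 15 from 81012281 to 81190757) stood at 7.59, 11.4 and 8.89 CPM in control and at 2.15, 2.88 and 3.2 CPM in dKO. The groups did not overlap, and the change was -1.75 ± 0.27 on the log2 scale (SE, edgeR adjusted p = 0.0409) and -1.61 ± 0.28 without dKO sham replicate 1. Some Mkl1 reads remained in every dKO library, and counts over a whole gene do not show which exons they cover. Mkl2 (chromosome 16 from 13256481 to 13417529) stood at 44.1, 32.6 and 44.1 CPM in control and at 15.2, 26.5 and 23.9 CPM in dKO. All dKO values were below all control values, but the estimated log2 change, -0.88 ± 0.23, missed the threshold (edgeR adjusted p = 0.507), as did -0.68 ± 0.20 without the odd library. In bulk RNA of this kind, fewer cells of a type and less RNA per cell cannot be told apart. Srf itself, which carries CArG boxes in its own promoter, had 87.5, 89.6 and 114 CPM in control and 85.2, 63.7 and 64.3 CPM in dKO. Its log2 estimate was -0.45 ± 0.18 with all libraries and -0.60 ± 0.16 without dKO sham replicate 1, at edgeR adjusted p-values of 0.507 and 0.528. Myocd did not pass either, and its estimate changed sign, from -0.04 ± 0.36 with all 12 libraries to 0.29 ± 0.28 without dKO sham replicate 1 (edgeR adjusted p = 0.969 and 1).

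Skeletal alpha-actin, Acta1, fell most among the genes of the MRTF-SRF list. This actin isoform of skeletal muscle is expressed in the fetal heart and reappears in the stressed adult heart, and it is a classic CArG-box gene. Acta1 (ENSMUSG00000031972.5, GRCm38 chromosome 8 from 123891769 to 123894751, minus strand) was measured at 168, 364 and 158 CPM in control and 8.97, 8.2 and 13.4 CPM in dKO. Every dKO library was thus more than an order of magnitude below every control library, and dKO sham replicate 1 lay between the other dKO libraries. The mean was 22.6-fold lower, and the log2 change was -4.50 ± 0.57 (SE, edgeR adjusted p = 0.0102). Without dKO sham replicate 1 the estimate was -4.41 ± 0.69, with an edgeR adjusted p of 0.0537, and without dKO sham replicate 2 the call was also lost (highest edgeR adjusted p over the left-out libraries 0.0888). The 250 bases before the Acta1 start (RefSeq, GRCm38.p6, chr8:123894776-123895025, minus strand) are shown because they hold the only exact CArG box found among the 7 promoters of called genes in the table, in capitals, beginning 73 bases before the start.
Acta1 promoter: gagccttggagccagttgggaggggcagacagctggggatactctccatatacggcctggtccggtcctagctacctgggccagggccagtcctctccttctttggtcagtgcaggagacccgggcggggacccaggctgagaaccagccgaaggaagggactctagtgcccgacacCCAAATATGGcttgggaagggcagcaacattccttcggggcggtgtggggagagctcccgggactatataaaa

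The exact CArG box was searched on both strands in 300 bases around each start, and 7 of the 12 called genes were in the RefSeq promoter table. A match was present in 1 of these 7, in 1.63% of all 32851 promoters in the table and in 10 of 32 promoters of the MRTF-SRF list, a list of actin-cytoskeletal genes known as targets. A match is a description of the sequence, not of binding. The 10 list members with a match had a median log2 change of -0.50 (-0.58 without dKO sham replicate 1), and 7 of them were below 0 in each fit. The 22 without one had a median of -0.23 (-0.01 without that library), and 15 of them were below 0 with all libraries and 11 without it. With all libraries the share below 0 was thus about the same with and without a match. Without dKO sham replicate 1 it was 7 of 10 with a match and 11 of 22 without one, and the difference was not tested.

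All 36 genes of the MRTF-SRF list were tested, and 1, Acta1, was called. The median of the list was -0.26 on the log2 scale and -0.25 without dKO sham replicate 1, beside 0.02 and -0.01 over all genes tested. Values in dKO were below all control values for 6 of the 36 and above them for 1. Over all genes tested these shares were 9.42% and 9.27%. At an unadjusted edgeR p under 0.05, 5 list members were lower and none higher with all 12 libraries, where 2.98% of all genes were lower and 6.27% higher. Without dKO sham replicate 1, 7 were lower and 1 higher (Filip1l), where 2.3% of all genes were lower and 2.02% higher.

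The estimates of all 6 actin genes were below 0 in both fits. Smooth muscle actin Acta2 had 52, 93.2 and 54.9 CPM in control and 32.1, 19.8 and 19.4 CPM in dKO, a log2 estimate of -1.49 ± 0.42 (edgeR adjusted p = 0.507). Its groups did not overlap, and the estimate was -1.77 ± 0.47 without dKO sham replicate 1 (edgeR adjusted p = 0.485). Cardiac actin Actc1, the main actin of the adult sarcomere, had 9617, 8639 and 9306 CPM in control and 8773, 5215 and 4916 CPM in dKO. Its estimate moved from -0.54 ± 0.29 to -0.86 ± 0.24 when dKO sham replicate 1, the highest dKO value, was left out. The cytoplasmic actins Actb and Actg1 had estimates of -0.67 ± 0.31 and -0.77 ± 0.29, and of -0.63 ± 0.35 and -0.59 ± 0.30 without that library. Tropomyosin Tpm1, which lies along the actin filament, showed how much 1 library could move a gene: its estimate was -0.13 ± 0.34 with all libraries and -0.68 ± 0.22 without dKO sham replicate 1, which read 13365 CPM against 5715 and 5398 in the other dKO libraries. None of these 5 genes passed in either fit.

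**Figure D2:**
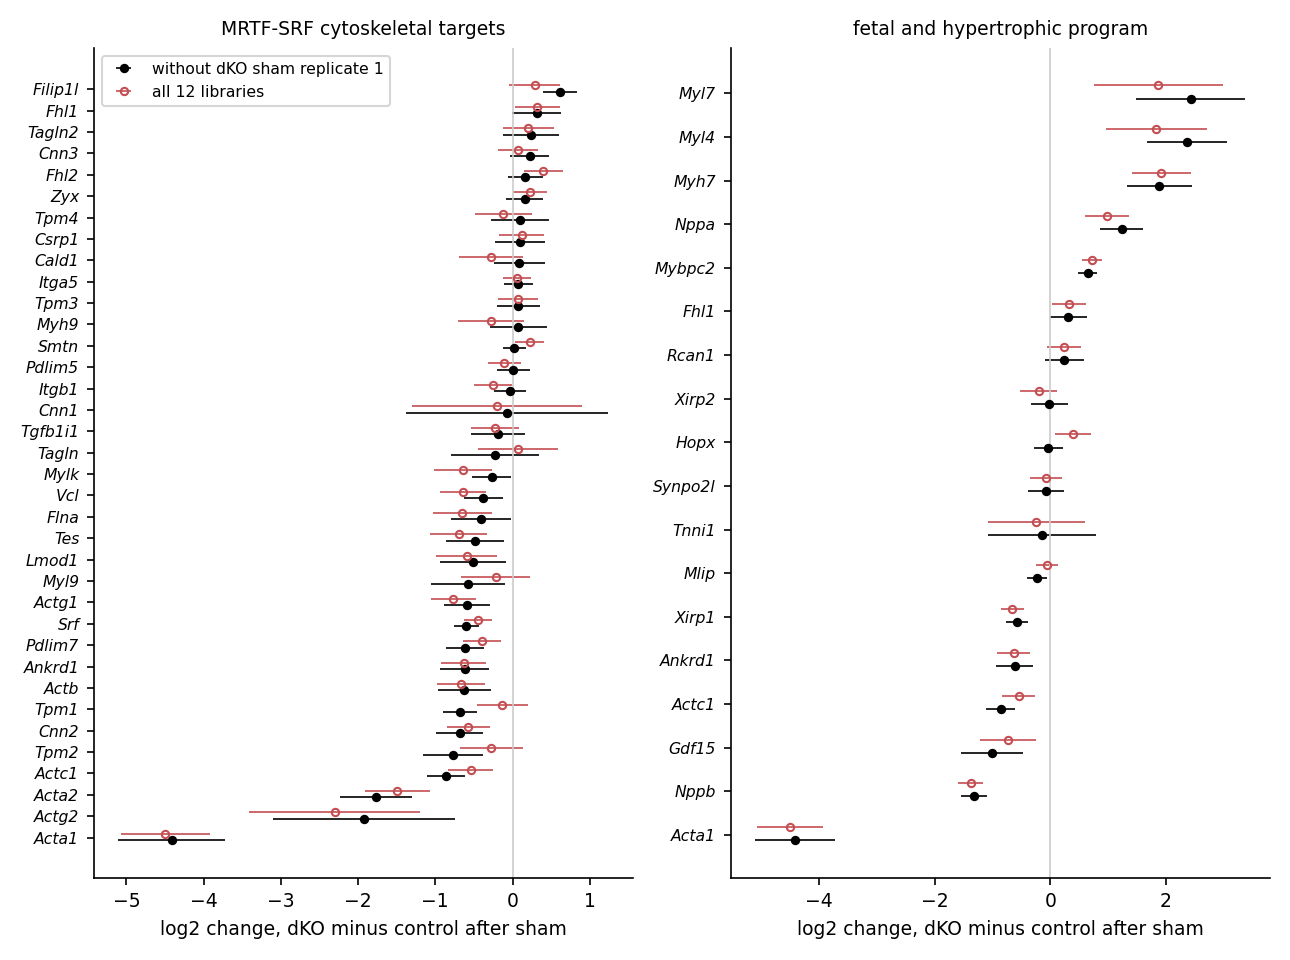
Log2 change of each gene of the MRTF-SRF list (left) and of the fetal and hypertrophic program (right), dKO minus control after sham, with bars of 1 SE, for all 12 libraries (open) and without dKO sham replicate 1 (filled). Acta1 lies lowest in both panels at -4.50 and -4.41, and most other MRTF-SRF genes lie within 1 log2 unit of 0.

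Genes that belong to the fetal and hypertrophic program, which adult ventricles re-express under load, did not move in 1 direction. Of 18 genes tested, 2 were called lower (Acta1 and Nppb) and none higher with all 12 libraries, none was called without dKO sham replicate 1, and the list median was -0.06 and -0.05. Nppb, which encodes B-type natriuretic peptide (ENSMUSG00000029019.8, GRCm38 chromosome 4 from 147985788 to 147987205), was measured at 272, 264 and 313 CPM in control and 101, 99.5 and 127 CPM in dKO. These groups were far apart relative to their spread, at 283 ± 26.4 against 109 ± 15.3 CPM (SD, n = 3 each). The log2 change was -1.38 ± 0.22 (edgeR adjusted p = 0.0458) and -1.32 ± 0.23 without dKO sham replicate 1 (edgeR adjusted p = 0.0864). The call was kept in only 1 of the 12 fits that each left out 1 library, as was that of Mkl1, and the edgeR adjusted p lay between 0.0384 and 0.257 when each was left out.

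Estimates of the other members lay on both sides of 0. Myh7, the slow beta myosin heavy chain, had 95.5, 96.2 and 135 CPM in control and 433, 374 and 433 CPM in dKO. All dKO libraries were well above all control libraries, with a ratio of means of 3.79, yet the estimated log2 change, 1.92 ± 0.51, missed the threshold (edgeR adjusted p = 0.507, and 0.678 without dKO sham replicate 1). Myh7 was called higher in 3 of 22 alternative analyses and not in the other 19. The 3 were DESeq2 (DESeq2 adjusted p = 0.0255), limma-voom with library quality weights, and edgeR with no filter on low counts (edgeR adjusted p = 0.0376). Its partner Myh6, the fast alpha heavy chain that dominates the adult mouse ventricle and whose promoter drives the Cre transgene, had an estimate of -0.14 ± 0.31 (-0.30 ± 0.31 without dKO sham replicate 1), and the groups overlapped. Nppa, encoding atrial natriuretic peptide, had 112, 96.6 and 60.8 CPM in control and 112, 165 and 257 CPM in dKO, an estimate of 0.99 ± 0.38 (edgeR adjusted p = 0.507) that was 1.23 ± 0.37 without dKO sham replicate 1 (edgeR adjusted p = 0.678). Mybpc2, a fast skeletal myosin-binding protein, had 18.6, 20.4 and 19.6 CPM in control and 35.2, 29.3 and 31.8 CPM in dKO (log2 0.72 ± 0.17, edgeR adjusted p = 0.385, and 0.65 ± 0.17 without the odd library). Xirp1, an actin-binding protein of the intercalated disc, had 378, 393 and 539 CPM in control and 246, 288 and 297 CPM in dKO (log2 -0.66 ± 0.20, edgeR adjusted p = 0.507, and -0.58 ± 0.19 without it). The groups did not overlap for Mybpc2 or Xirp1.

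Atrial markers were read beside these genes. Their summed level was 278, 192 and 176 CPM in control and 236, 368 and 514 CPM in dKO, so the groups overlapped through dKO sham replicate 1. Of the 10 markers Bmp10 was too low to be tested. Myl4 and Myl7, the atrial myosin light chains that are also in the fetal list, had 46.2 and 82.6 CPM and 28.5 and 49.2 CPM in dKO sham replicates 2 and 3. Replicate 1 had 4.55 CPM of Myl4 and 1.41 CPM of Myl7, and control libraries ranged from 3.39 to 25.1 and from 1.82 to 14.8 CPM. With all libraries 1 of 9 atrial markers had an unadjusted edgeR p under 0.05 (higher, as 6.27% of all genes were), and without dKO sham replicate 1 it was 6 of 9, all higher (2.02% of all genes). None was called in either fit, none had groups that did not overlap, and the list median was 1.31 and 1.79 after sham and -1.06 after TAC. The part of atrial tissue in the Nppa, Myl4 and Myl7 values was not tested.

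Lcn2 and Rtn4r joined the calls without dKO sham replicate 1. Lcn2, the iron-siderophore-binding protein lipocalin 2 (ENSMUSG00000026822.14, GRCm38 chromosome 2 from 32384633 to 32388252), was measured at 1.05, 0.728 and 1.34 CPM in control and 6.64, 3.31 and 2.94 CPM in dKO. The groups did not overlap, and the log2 change was 1.58 ± 0.23 without the odd library, which read highest (edgeR adjusted p = 0.0484), and 2.02 ± 0.33 with it. Rtn4r, the Nogo receptor of neurons (ENSMUSG00000043811.5, GRCm38 chromosome 16 from 18127642 to 18152408), was measured at 6.12, 8.9 and 7.92 CPM in control and 1.72, 0.755 and 0.602 CPM in dKO. All dKO libraries were below all control libraries, with a log2 change of -3.48 ± 0.52 without dKO sham replicate 1 (edgeR adjusted p = 0.0484) and -2.94 ± 0.50 with it.

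The other 7 called genes shared a property that the test did not use. Each of the 6 genes called higher with all 12 libraries has a near-identical copy elsewhere in the genome (at least 95% identity over at least 100 bases of transcript), as does Ndufs5 among the 4 called lower. Of the 14554 tested genes with an annotated transcript, 18.1% have such a copy, and Acta1, Nppb, Mkl1, Lcn2 and Rtn4r have none. The 6 are the processed pseudogenes BC002163, Rpl3-ps1, Gm16399 and Gm20305 and the protein-coding genes Gm14085 and Eif3j2, and all but Eif3j2 fall outside the rule for naming genes and were chosen after their values were seen. Gm14085 has 139 mismatches to its copy Slc28a2 over 3750 aligned bases, and Gm16399 has 10 to Cox6c over 214. Rpl3-ps1 has 2 to Rpl3 over 1210, and Eif3j2 has 4 to Eif3j1 over 2379. How counts are shared between copies is uncertain where reads hold few or none of these differences.

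The smallest p-values in both directions were in 1 pair. Ndufs5, a subunit of mitochondrial respiratory complex I (GRCm38 chromosome 4 from 123712710 to 123718202), was measured at 45.9, 35.5 and 44.3 CPM in control and 3.07, 1.22 and 0.678 CPM in dKO. BC002163, a processed pseudogene of 319 bases (chromosome 16 from 42955631 to 42955949), was measured at 0.96, 1.11 and 0.93 CPM in control and 224, 86.2 and 80 CPM in dKO. In each of the 6 libraries 1 member of the pair was high and the other low, and the groups did not overlap for either. The log2 changes were -4.73 ± 0.41 for Ndufs5 and 7.02 ± 0.45 for BC002163 (edgeR adjusted p = 0.000459 and 3.1e-05), and -5.45 ± 0.28 and 6.37 ± 0.22 without dKO sham replicate 1. Both stayed called when any 1 of the 12 libraries was left out. Counts of both genes summed to 46.9, 36.6 and 45.3 CPM in control and 227, 87.4 and 80.7 CPM in dKO, a ratio of means of 3.07 that fell to 1.96 without dKO sham replicate 1. The pseudogene is identical to the coding sequence of Ndufs5 except at 2 bases, written as base in BC002163, position from its first base and base in Ndufs5: C81T and G105A. Both lie in the first 150 bases, shown here from the reference transcripts (GRCm38) with the differing bases in capitals.
BC002163: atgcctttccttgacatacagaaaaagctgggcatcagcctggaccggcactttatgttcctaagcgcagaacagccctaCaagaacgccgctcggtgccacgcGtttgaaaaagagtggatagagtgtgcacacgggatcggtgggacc
Ndufs5: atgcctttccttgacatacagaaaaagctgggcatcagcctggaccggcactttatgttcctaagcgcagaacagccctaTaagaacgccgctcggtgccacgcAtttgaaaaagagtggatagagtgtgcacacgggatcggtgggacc

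Gm20305 was called higher too, but here both it and its copy had reads in every dKO sham library. It is a pseudogene of 177 bases on chromosome 1 (180854282 to 180854458, minus strand) that matches the whole coding sequence of Polr2k, a small subunit shared by the RNA polymerases, but for 1 base (G49T, base in Gm20305 first). It had no count in any control sham library and 7.13, 3.17 and 2.37 CPM in dKO. That is at least 90.9-fold higher, against a floor of 3 counts over the control group. Polr2k had 5.39, 5.27 and 6.21 CPM in control and 3.07, 2.77 and 2.82 CPM in dKO, and did not pass (log2 -0.96 ± 0.29, edgeR adjusted p = 0.507, and -1.01 ± 0.32 without dKO sham replicate 1). The sum of both was 5.39, 5.27 and 6.21 CPM in control and 10.2, 5.94 and 5.2 CPM in dKO, a ratio of means of 1.26, or 0.99 without dKO sham replicate 1. Polr2k was the most abundant in control sham of 3 copies of Gm20305, and the others were left out of this sum. The single difference between Gm20305 and Polr2k is in capitals in the first 150 bases of each.
Gm20305: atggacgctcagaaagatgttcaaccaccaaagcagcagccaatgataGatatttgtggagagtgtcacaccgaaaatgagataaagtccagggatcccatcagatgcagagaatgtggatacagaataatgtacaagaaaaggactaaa
Polr2k: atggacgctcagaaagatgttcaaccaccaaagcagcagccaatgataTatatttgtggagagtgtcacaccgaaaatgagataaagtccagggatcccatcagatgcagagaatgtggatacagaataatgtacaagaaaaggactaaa

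Eif3j2, a copy of the translation initiation factor subunit gene Eif3j1, had 0.137, 0.514 and 0.372 CPM in control and 12.7, 6.44 and 5.08 CPM in dKO. It was called in both fits (log2 4.53 ± 0.51, edgeR adjusted p = 0.0032, and 4.05 ± 0.44 without dKO sham replicate 1). Eif3j1 had 28.2, 24.5 and 25.8 CPM in control and 7.19, 12.8 and 16 CPM in dKO, and its log2 estimate of -1.12 ± 0.28 missed the threshold (edgeR adjusted p = 0.462), as did -0.86 ± 0.23 without that library. The sum was 26.5 ± 1.69 CPM in control and 20.1 ± 0.926 CPM in dKO (SD, n = 3 each), a ratio of 0.76 with and without the odd library.

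The remaining pairs differed in how much of the sum the called gene held. Gm14085 had 2 counts in all control sham libraries together and 417 in dKO, a ratio of 213 with an exact 95% counting interval from 58.6 to 1764 that covers counting error only. Its relative Slc28a2, a nucleoside transporter, had 39.8, 53.6 and 41.8 CPM in control and 10.9, 32.4 and 44.2 CPM in dKO, and the ratio of summed means was 0.78, or 0.98 without dKO sham replicate 1. Rpl3-ps1 (log2 4.89 ± 0.52, edgeR adjusted p = 0.00194, and 4.61 ± 0.49 without that library) and Gm16399 held a small share of a much larger sum with Rpl3, a protein of the large ribosomal subunit, and Cox6c, a subunit of cytochrome c oxidase. The ratio of summed means was 1.47 for the Rpl3 pair and 1.44 for the Cox6c pair, or 1.17 and 0.92 without dKO sham replicate 1. Rpl3 was the most abundant in control sham of 6 copies of Rpl3-ps1, and the others were not summed. Gm16399 had 1 count in control and 131 in dKO, a ratio of 134 with an exact 95% counting interval from 23.6 to 5323. Without dKO sham replicate 1 the edgeR adjusted p was 0.0016 for Gm14085, 0.045 for Gm16399 and 0.0499 for Gm20305. Gm16399 and Gm20305 each kept their call without only 5 of the 12 libraries, at edgeR adjusted p-values of up to 0.182 and 0.135. The call of Gm14085, Rpl3-ps1 and Eif3j2 was kept without any 1 of the 12.

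**Figure D3:**
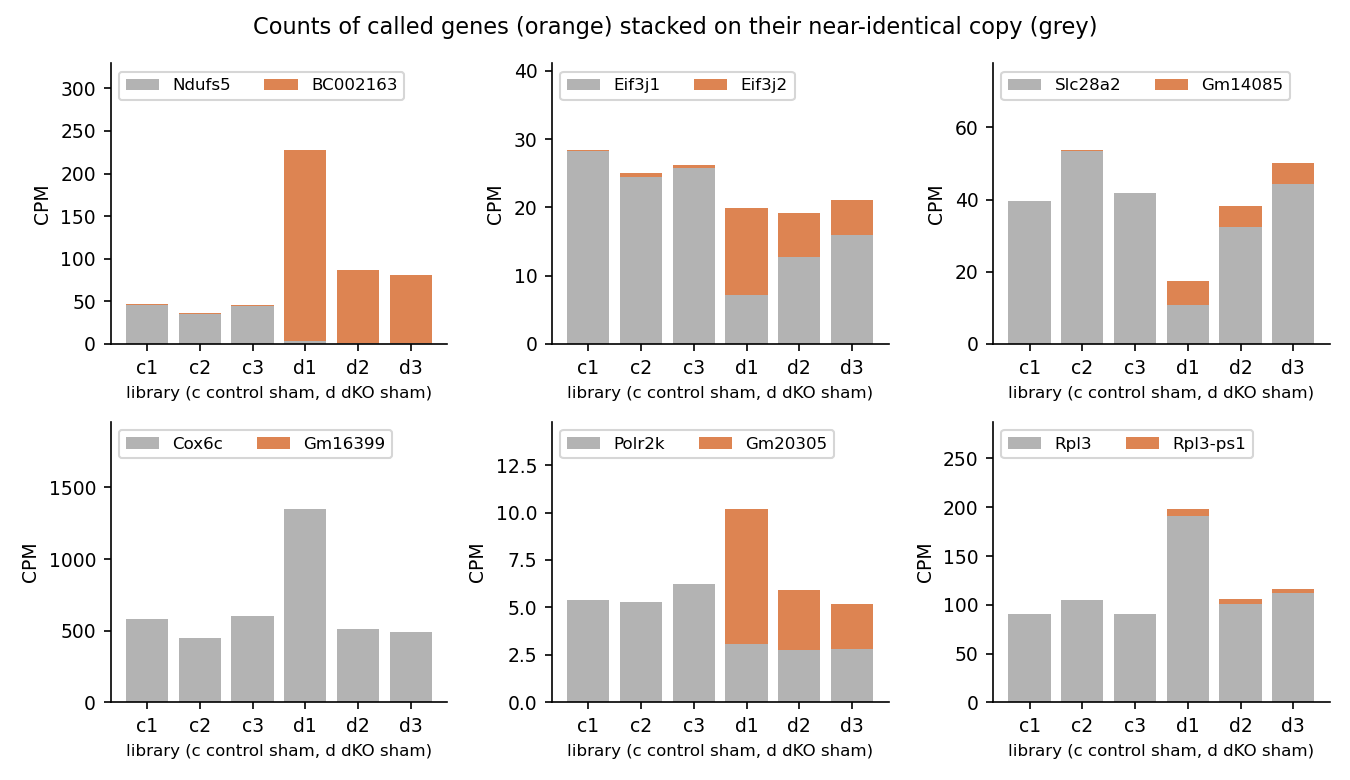
Level (CPM, linear axes from 0) of the 6 genes called higher with all 12 libraries (orange) stacked on their most abundant near-identical copy (grey), in control sham (c1 to c3) and dKO sham (d1 to d3) replicates. Orange is nearly absent in the control bars, and the whole bar is taller in d1 than in d2 and d3 for Ndufs5, Cox6c, Polr2k and Rpl3.

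A further 18 genes had an adjusted p from 0.05 to under 0.1 with all 12 libraries, 10 higher and 8 lower, Lcn2 and Rtn4r among them. In all 18 the groups did not overlap (9.27% of all genes lay above and 9.42% below), but these genes were selected for a small p in the same libraries, so nothing is read from that count. The genes described here were chosen after their values were seen, and none was called in either fit. Frmd5, a FERM-domain protein of the membrane cytoskeleton, had 207, 173 and 207 CPM in control and 79.6, 98.7 and 78 CPM in dKO (log2 -1.19 ± 0.19, edgeR adjusted p = 0.0521, and -1.14 ± 0.20 without dKO sham replicate 1). Arc, a neuronal immediate-early gene that is also an SRF target, had 1.92, 8.22 and 18 CPM in control and 186, 120 and 81.6 CPM in dKO (log2 3.77 ± 0.71, edgeR adjusted p = 0.0922, and 3.41 ± 0.71 without that library). Ttc38 had 31.2, 20.7 and 29.9 CPM in control and 12.9, 9.39 and 9.41 CPM in dKO (log2 -1.37 ± 0.23, edgeR adjusted p = 0.0555, and -1.53 ± 0.24 without it). Nedd1, a centrosomal protein that recruits gamma-tubulin, had 33.5, 28.2 and 27.9 CPM in control and 4.73, 11 and 10.7 CPM in dKO (log2 -1.75 ± 0.32, edgeR adjusted p = 0.0845, and -1.46 ± 0.27 without it).

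The other pathway lists held no called gene beyond those named. Energy metabolism showed the pull of dKO sham replicate 1. The 49 nuclear genes of oxidative phosphorylation had a median log2 change of 0.64 with all libraries and -0.03 without it, and 11 against 0 were higher at an unadjusted edgeR p under 0.05, where 6.27% and 2.02% of all genes were. The 36 cytosolic ribosomal protein genes went from a median of 0.77 to 0.10, with 14 against 0 higher by the same measure. Of these 36, 15 lay above all control values in every dKO library and 0 below, where 9.27% and 9.42% of all genes did. Of the 49 oxidative phosphorylation genes, 0 lay above and 0 below. Without dKO sham replicate 1, 29 of the 36 ribosomal estimates were above 0 and 7 below. Genes with at most 1971 nt of exons were higher by a median log2 of 1.11 in that library than in the other dKO sham libraries. Genes with at least 10504 nt of exons were lower, at -0.88. With the transcript-length trend removed from all 12 libraries, the oxidative phosphorylation and ribosomal medians were 0.29 and 0.31, beside 0.02 over all genes. What moved these medians was not tested. Glycolysis and glucose uptake genes went from 0.37 to 0.08 and antioxidant enzymes from 0.37 to 0.04. Extracellular matrix genes (35 tested) had medians of -0.07 and 0.20, sarcomere genes (30) 0.20 and -0.05, and calcium handling genes (28) -0.12 and -0.09, beside 0.02 and -0.01 over all genes.

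Kcna5 and Pfkp, chosen after their values were seen, are examples of list members that kept the same side in both fits. Of potassium channel genes, Kcna5, an atrial-type and repolarising channel, had 32.7, 43.1 and 32.3 CPM in control and 22.5, 22.3 and 20.1 CPM in dKO (log2 -0.74 ± 0.26, edgeR adjusted p = 0.507, and -0.76 ± 0.29 without dKO sham replicate 1). Pfkp, the platelet-type phosphofructokinase of glycolysis, had 52.5, 64.3 and 45.2 CPM in control and 86, 83.5 and 87.6 CPM in dKO (log2 0.67 ± 0.24, edgeR adjusted p = 0.507, and 0.66 ± 0.26 without it). The groups did not overlap for either gene, and neither passed. Of the 21 potassium and pacemaker channel genes tested, 3 lay below all control values and 0 above. Of the 27 glycolysis and glucose uptake genes, 7 lay above and 1 below. Over all genes tested 9.42% lay below and 9.27% above.

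**Figure D4:**
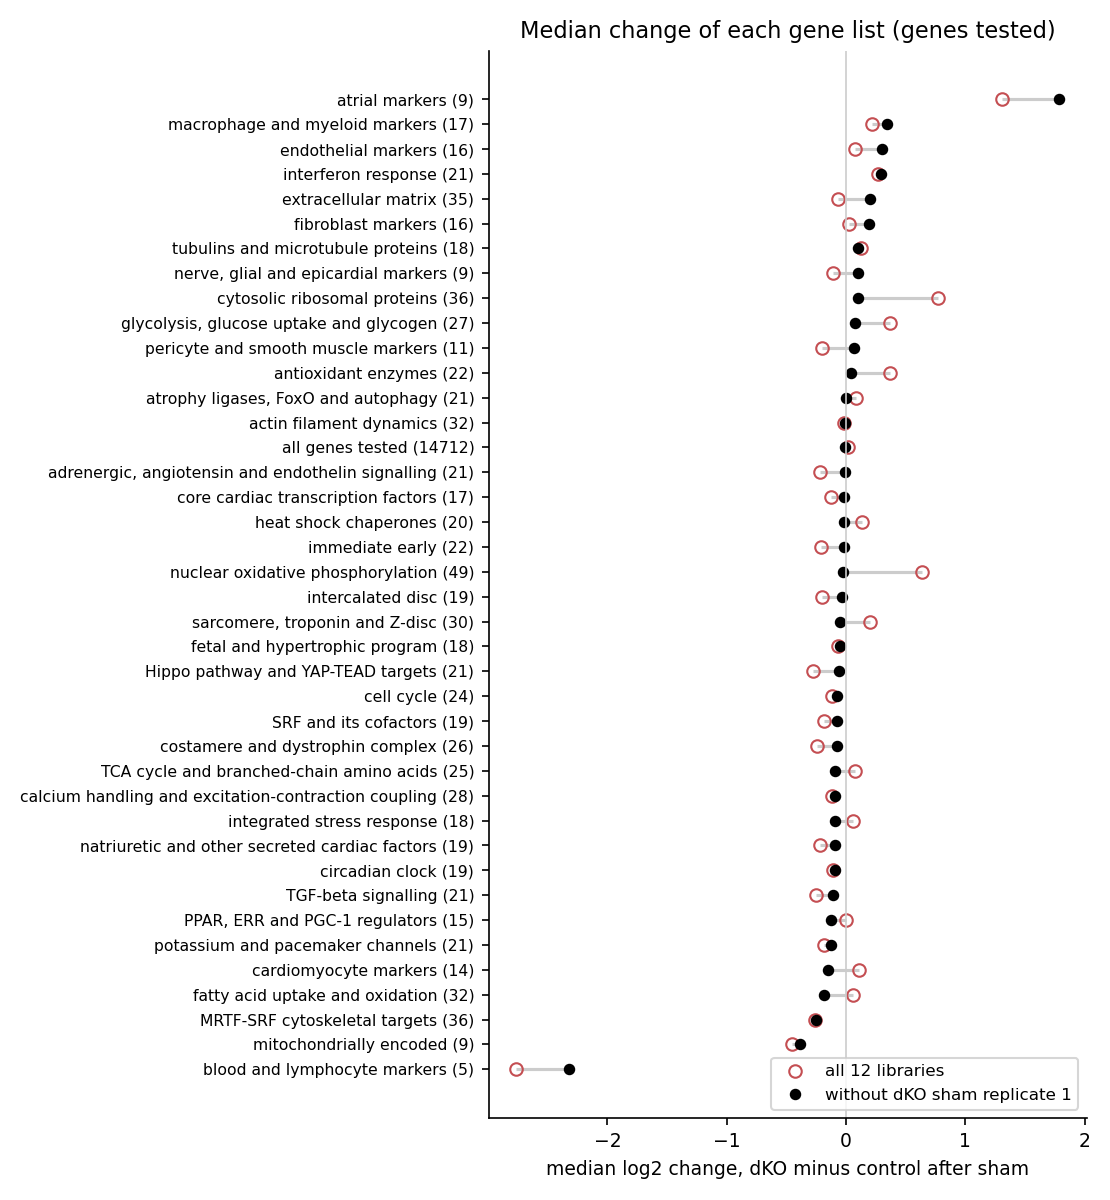
Median log2 change, dKO minus control after sham, of each gene list and of all genes tested, with the number of genes tested in parentheses, for all 12 libraries (open) and without dKO sham replicate 1 (filled). The open and filled points lie furthest apart for cytosolic ribosomal proteins (0.77 and 0.10) and nuclear oxidative phosphorylation (0.64 and -0.03), and the MRTF-SRF medians nearly coincide.

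The labelled cell type was borne out by its markers, since the 14 cardiomyocyte markers summed to between 84264 and 175683 CPM in the 6 libraries, the highest in dKO sham replicate 1. Markers of other cells were present at lower summed levels. Highest among these were the 11 pericyte and smooth muscle markers, at 3194 to 3263 CPM in control and 3203 to 5059 CPM in dKO. Of these 11, 3 lay below all control values in every dKO library and 0 above. Acta2 is also a member of this list, and the part of such cells in its values was not tested. The 16 fibroblast markers summed to 1129 to 1958 CPM in control and 1257 to 1714 CPM in dKO, the 16 endothelial markers to 1995 to 2819 and 2307 to 3127 CPM, and the 18 macrophage and myeloid markers to 189 to 403 and 289 to 364 CPM. These ranges overlapped, and no gene of these lists was at 0 in all 6 libraries. Blood was the exception: its 10 markers summed to 71.7, 93.8 and 33.3 CPM in control and 3.01, 10.6 and 17.7 CPM in dKO. The 5 markers that could be tested, among them Hba-a1 and Hbb-bs of haemoglobin, were below all control values in every dKO library, at log2 estimates from -2.38 to -2.89 and edgeR adjusted p-values from 0.375 to 0.507, with a median estimate of -2.77, or -2.32 without dKO sham replicate 1. Over all genes tested 9.42% lay below all control values. The part of blood cells in any other result was not tested.

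The TAC libraries gave each called gene a measurement in samples that the sham means did not use, although the estimate of spread was shared. Among them dKO TAC replicate 2 stood apart much as dKO sham replicate 1 did. Its correlation with transcript length was -0.60, against -0.09 to 0.10 in control TAC. Mitochondrially encoded genes took 15.3% of its counts, against 23.2% to 27.4% in the other TAC libraries. Of the 10 genes called after sham with all 12 libraries, 9 were called in the same direction after TAC. Over all genes 0.306% were called higher there and 0.122% lower. These 9 are Acta1, Mkl1, Ndufs5 and the 6 genes called higher. Counts of Ndufs5 and of those 6 carry the uncertainty of their near-identical copies, although Gm14085 and Gm16399 differ from theirs at more bases than the others do. Acta1 had 3155, 3539 and 1658 CPM in control TAC and 63.1, 261 and 107 CPM in dKO TAC (log2 -4.27 ± 0.56, edgeR adjusted p = 0.00785). Both genotypes thus read higher after TAC than after sham for Acta1, and the genotype difference was of similar size. Mkl1 (-2.42 ± 0.27, edgeR adjusted p = 0.00182), Lcn2 (3.38 ± 0.31, edgeR adjusted p = 0.000447) and Rtn4r (-2.96 ± 0.50, edgeR adjusted p = 0.0298) were also called after TAC. Of the 18 genes near the threshold, all had the same sign after TAC and 7 were called there. The share of all genes with the same sign was not taken, so nothing is read from the sign count.

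Nppb was the exception. It had 597, 880 and 588 CPM in control TAC and 621, 754 and 566 CPM in dKO TAC, so the groups overlapped and the log2 estimate was -0.09 ± 0.21 (edgeR adjusted p = 0.956). The difference between its effects after TAC and after sham was 1.29 ± 0.30, with an unadjusted edgeR p of 0.001 and an edgeR adjusted p of 0.841. In that test of the difference none of 14712 genes passed at an adjusted p under 0.05 (edgeR), while DESeq2 called 11. An unadjusted edgeR p under 0.05 was found for 697 of the 14712, and nothing is read from that count. Nedd1, near the threshold after sham, had an estimate of -0.07 ± 0.31 after TAC (edgeR adjusted p = 0.982).

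**Figure D5:**
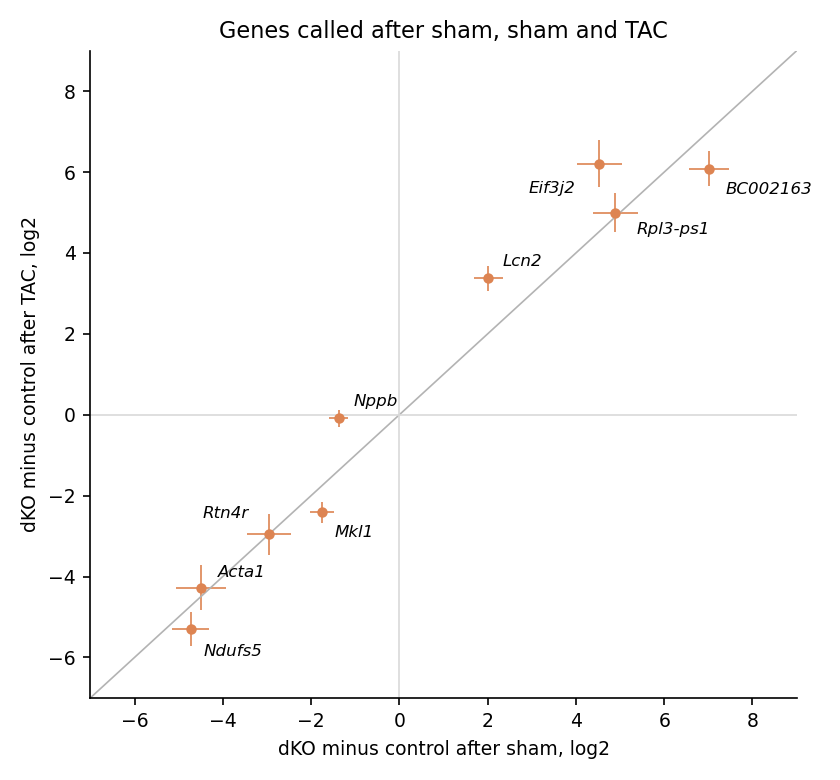
Log2 change, dKO minus control, after sham (horizontal) and after TAC (vertical) for the 9 genes called in either sham fit that had more than 3 counts in each sham group, from the fit with all 12 libraries; bars are 1 SE and the grey diagonal marks equal changes. Nppb is the gene that lies near 0 after TAC (-0.09) and below 0 after sham (-1.38).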

How the data were processed

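The authors deposited raw read counts per gene (49568 genes, whole numbers, no normalization). They used GRCm38.p5 with STAR 2.5.2b, featureCounts, Trimmomatic 0.36 and Subread 1.5.0p3, per the submitters' processing notes. How reads with several matches were handled, the strand setting, the annotation and other settings: not given in the sources used here. Per the labels' protocols, cardiomyocytes were sedimented for 10 min at 37 °C, and stranded poly(A) libraries from 200 ng of RNA were read as single ends of 100 nt.

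A single model with 4 group means was fitted to the 12 libraries (edgeR 4.0.16, R 4.3.3, quasi-likelihood F test, TMM, filterByExpr by group, Benjamini-Hochberg adjustment over all genes tested, threshold 0.05). SE is the size of the log2 change divided by the square root of F. A floor of 3 counts was 0.108 to 0.184 CPM in the sham libraries, for counting error only. No pair of libraries within a group was a duplicate, and pairs across groups were not checked for this. GENCODE mouse release 21 (GRCm38) matched 14554 of 14712 tested genes. Copies were searched with blastn 2.17.0, at thresholds chosen after values were seen. Scripts were tested on simulated data.

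Gene lists, members and the naming rule were chosen with earlier results of these data known. Under that rule stand Acta1, Myh6 and Myh7, Nppa and Nppb, Srf with its cofactors Myocd, Mkl1 and Mkl2, up to 12 called genes in each direction with the smallest p at a mean of at least 1 CPM (no predicted genes or pseudogenes), up to 10 in each direction called only without dKO sham replicate 1, and called list members. Other genes were chosen after values were seen. Alternatives were DESeq2 1.42.0, limma-voom (limma 3.58.1) with and without quality weights, other scalings and filters, a replicate block, removal of the length trend and leaving out libraries.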

Additional observations from a re-analysis of the deposited data

How the results depend on the processing

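The counts of calls were small and moved with the tool and filter. Higher and lower genes numbered 6 and 4 in the reported fit. They numbered 32 and 30 with DESeq2, 214 and 294 with limma-voom and library quality weights (dKO sham replicate 1 had a weight of 0.082), 22 and 31 with no filter on low counts, 10 and 6 with the transcript-length trend removed, and 4 and 1 (the latter Acta1) in the 6 sham libraries alone. All 10 reported calls were also made by DESeq2, by the quality-weighted fit and with no filter, while 2 of the 4 higher and the 1 lower sham-only calls were among them. Leaving out 1 library gave 4 to 10 higher (10 without dKO sham replicate 3) and 1 to 3 lower. The lower count was 1 without dKO sham replicate 2, 3 without control TAC replicate 1 or 2 or dKO TAC replicate 3, and 2 without any other library. Without dKO sham replicate 1, the reported 9 calls became 66 with DESeq2, 15 with the length trend removed, 17 in the 5 other sham libraries alone, and 5 to 13 when a second library was left out, with 5 without control sham replicate 1, dKO sham replicate 2 or dKO sham replicate 3. The last 2 leave 1 dKO sham library, which is then assumed to vary like the other groups. Of the 10 genes called after sham, 9 were called the same way after TAC, and 6 to 9 when 1 library was left out. The test of a different effect after TAC gave 0 calls, 11 with DESeq2, 2499 with quality weights, 5 with no filter, 1 with the length trend removed (Gm45670), 0 to 1 when 1 library was left out, the 1 being Prkab2 when dKO TAC replicate 2 was dropped, and 2 when that library and dKO sham replicate 1 were both dropped (Prkab2 and Dync1li1). The causes were not tested. Myocd changed sign with quality weights (0.19), with the length trend removed (0.050), without both odd libraries (0.29) and between -0.29 and 0.29 when 1 library was left out, and Myh6 with the length trend removed (0.049); neither passed anywhere. The mitochondrial share differed by -8.32 to -2.10 percentage points when 1 library was left out. Replicate numbers do not pair the samples (r of same-numbered control and dKO sham libraries 0.12, 0.10 and -0.23, and 3 of 12 libraries were closest to their own number), and a fit with the replicate block gave 6 higher and 4 lower genes, of which 5 and 3 were among the reported ones, and 9 without dKO sham replicate 1. At 3 libraries a group with 1 that stands apart, genes of moderate change could be missed.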

Other observations

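Genes near the 2 targeted loci were counted, since Rtn4r lies 4.71 Mb from Mkl2 and Ttc38, Arc and Psca lie 4.64, 6.34 and 6.30 Mb from Mkl1. These genes were seen there first and are counted in each window that holds them, so nothing is read from an excess. Within 10 Mb of Mkl1, 17 of 248 tested genes had an unadjusted edgeR p under 0.05 without dKO sham replicate 1 (6.85%), against 4.32% of all genes. Within 10 Mb of Mkl2 it was 10 of 173 (5.78%). Within 5 Mb the numbers were 9 of 178 and 6 of 85. With all 12 libraries they were 31 of 178 and 11 of 85 within 5 Mb, against 9.25% of all genes, and apart from the targeted gene itself no gene there was called in that fit. The genes with the smallest p near Mkl2 were Rtn4r, which was lower, and the miRNA gene Gm23935, at 0.411, 1.11 and 0.707 CPM in control and 52.3, 16 and 7.19 CPM in dKO (edgeR adjusted p = 0.0521). What sets these values was not tested.

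The processed pseudogene Gm15920 differed among dKO libraries. It had 0.274, 0.642 and 0.335 CPM in control sham and 173, 63.8 and 60.6 CPM in dKO sham (edgeR adjusted p = 0.0555). After TAC it had 0.0677 CPM in dKO replicate 1 (control TAC 0.142 to 0.3 CPM) and 33.3 and 19.3 CPM in the other dKO libraries. The dKO TAC group thus held 1 library at the control level and 2 far above it.

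Pnck, a calcium/calmodulin-dependent kinase, was near the threshold only without dKO sham replicate 1. It had 7.77, 9.12 and 8.85 CPM in control, 3.17 and 3.12 CPM in dKO sham replicates 2 and 3, and 9.46 CPM in replicate 1 (edgeR adjusted p = 0.0537 without that library and 0.507 with it). After TAC it was called lower, at 5.39, 4.8 and 5.71 CPM in control and 1.05, 1.22 and 0.739 CPM in dKO (edgeR adjusted p = 0.0298).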
